A study of Triticum aestivum with 12 samples.

Results

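Actin, glyceraldehyde-3-phosphate dehydrogenase (GAPDH), elongation factor 1 alpha (EF1a), ubiquitin and 18S ribosomal RNA are the reference transcripts that the wheat array carries as control probe sets. A probe set is a group of short probes whose signals are summarised into 1 value. They were chosen by name: every probe set whose ID begins with AFFX-Ta-actin, AFFX-Ta-gapdh, AFFX-Ta-ef1a or AFFX-Ta_Ubiquitin, and AFFX-Ta_18SrRNA_at. The rule found 16 of the 61290 probe sets on the array and used no measured value. Actin had 4 of them, GAPDH 5, EF1a 3, ubiquitin 3 and 18S rRNA 1. The 4 protein-coding transcripts were each probed near the 3' end, in the middle and near the 5' end.

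RNA was measured on 12 Affymetrix wheat arrays, 1 for each sample of seedling roots of winter wheat, in 4 groups of 3 arrays that the series design describes as biological replicates. The groups were the varieties Xindong20 and Xindong23, each grown in Hoagland nutrient solution with conventional phosphorus (CP, 1.0 mmol/L) or low phosphorus (LP, 0.05 mmol/L), where KCl stood in for part of the KH2PO4. After 14 days of culture, both solutions were made up with 15% polyethylene glycol (PEG-6000), which draws water away from roots, and the seedlings stayed in them for 7 days. All 12 samples were thus under drought, and no unstressed roots were analysed here. The labels do not say how many seedlings were pooled for a sample, so p-values measure the spread between these arrays.

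Reference transcripts come from genes that most cells need at all times, which is why they serve as internal standards when the RNA of other genes is compared. Ubiquitin is the small protein that marks other proteins for breakdown by the proteasome. Actin forms the filaments of the cytoskeleton, which root cells need for tip growth and vesicle traffic. GAPDH is an enzyme of glycolysis. EF1a brings aminoacyl-tRNA to the ribosome, and 18S rRNA is the RNA of the small ribosomal subunit, which unlike the others has no poly-A tail. Where labelled copies are made from the poly-A tail, the 5' end of a transcript is reached last, and the signal of the 3' probe set against the 5' probe set is a common check of how complete the copies are.

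Values are log2 intensities as the authors deposited them, so a difference of 1 on this scale is a ratio of 2. Array medians lay between 4.24 and 4.33, and correlations between arrays between 0.899 and 0.992. Since RMA sets all arrays to a common distribution, it takes out any change that most transcripts have in common. Per the labels all samples were root. Of the leaf genes annotated on the array, OEE1 and OEE2, of photosystem II, reached at most 4.92 and 5.02, while the 28 probe sets of the chloroplast gene rbcl had means from 1.57 to 9.64, so leaf transcripts were not all near background. The 3 probe sets of DMAS1, a root enzyme of iron uptake, had means from 6.80 to 8.54. Of the genes taken as grain markers by name, the 5 probe sets of gli-2 had means from 1.54 to 5.53 and reached at most 6.58. The 1 set of GLU1A had a mean of 4.79 and reached 8.64, so these too were not all near background.

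Replicate 3 of both LP groups stood apart from the other 10 arrays. The mean of the 12 poly-A spike probe sets, bacterial RNAs that are added to the sample before labelling, was 3.74 on Xindong20 LP3 and 4.30 on Xindong23 LP3, against 5.34 to 7.68 on the others. This mean also differed with phosphorus: it was 7.04 ± 0.41 (SD, n = 6) on the CP arrays and 5.11 ± 0.92 on the LP arrays, without overlap. The mean of the 9 hybridisation spikes, which are added after labelling, was 10.83 ± 0.25 on the CP arrays and 10.54 ± 0.53 on the LP arrays, with 11.36 and 10.98 on the LP3 arrays. The part that the spikes' change plays in the results below was not tested, and values are given with and without both LP3 arrays where they rest on them.

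The levels of the reference probe sets against the array median were uneven. The 3 ubiquitin sets and the 18S set were far above the array median on all 12 arrays, as were, less far, actin-5, actin-M, actin-M_x, ef1a-3 and gapdh-5, which makes 9 in all. The sets actin-3, ef1a-5, ef1a-M_s, gapdh-3 and gapdh-M lay below the array median on every array. The gapdh-5_x and gapdh-M_x sets fell below it on 6 arrays and 1 array. The suffixes x and s mark sets with probes that can also match other transcripts, so these sets may hold signal from related genes.

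**Figure D1:**
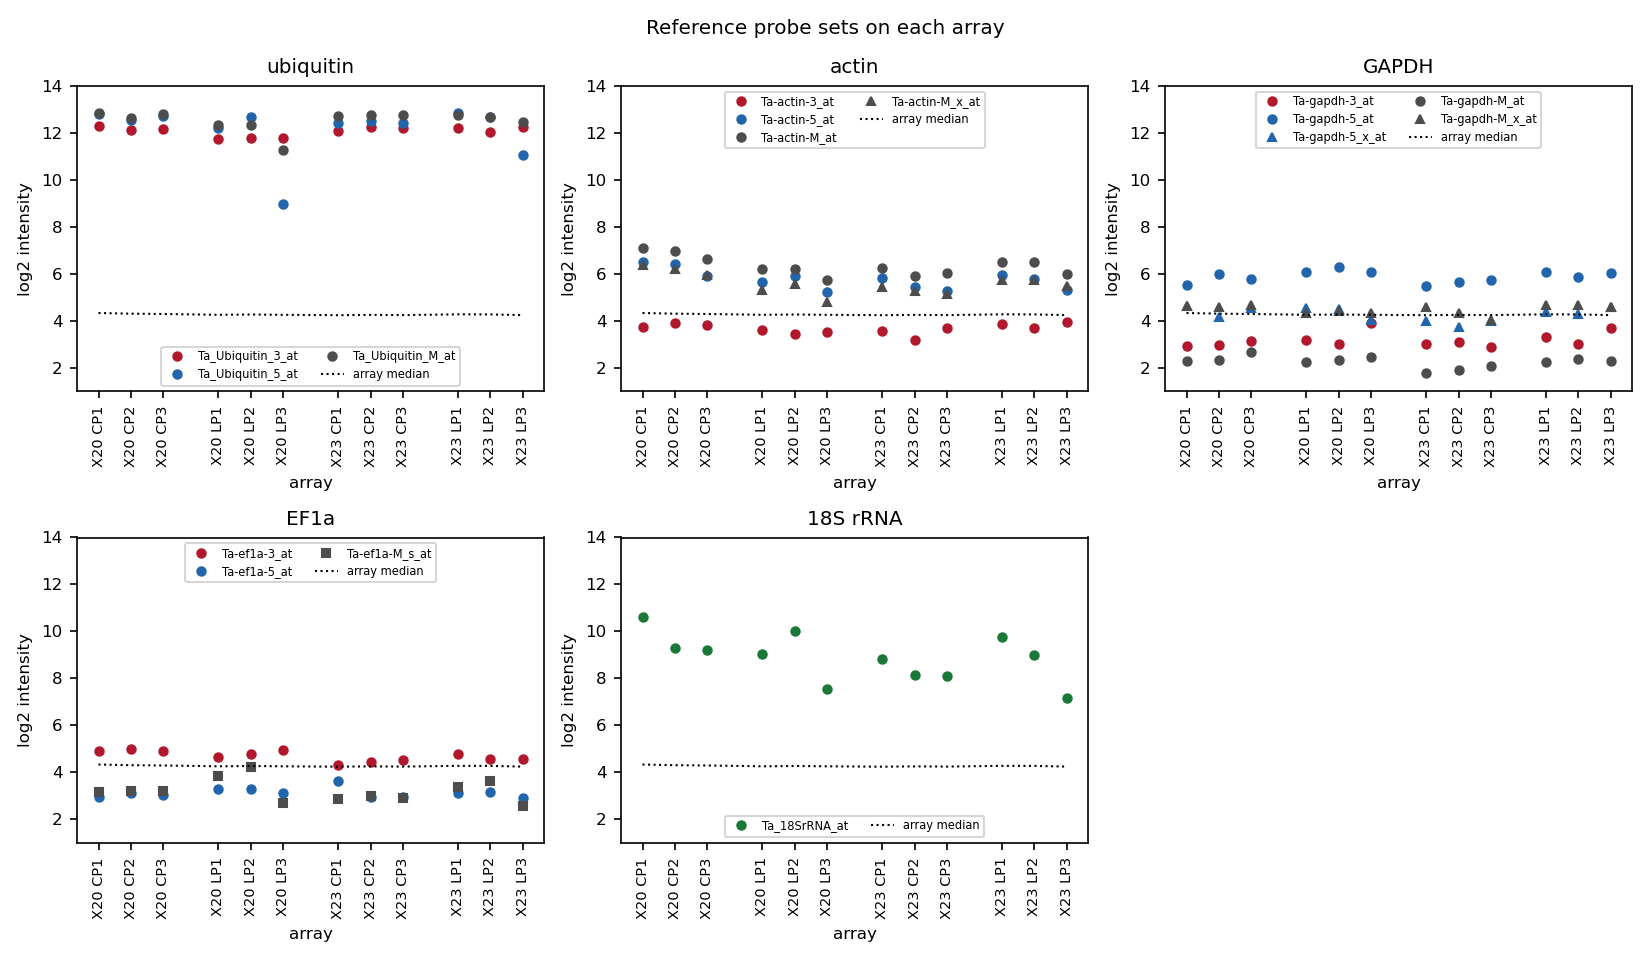
Log2 intensity (y axis) of each reference probe set on each of the 12 arrays (x axis, X20 for Xindong20 and X23 for Xindong23), 1 panel per transcript, with the array median as a dotted line. The ubiquitin 5' set drops to 8.97 and 11.08 on the LP arrays numbered 3, and the actin 3', GAPDH 3' and EF1a 5' sets lie below the array median throughout.

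The ubiquitin 3' set, AFFX-Ta_Ubiquitin_3_at, was among the steadiest of these probe sets, except for a lower level in Xindong20 at LP. In Xindong20 it read 12.29, 12.14 and 12.17 at CP and 11.74, 11.80 and 11.80 at LP. In Xindong23 it read 12.07, 12.23 and 12.23 at CP and 12.23, 12.05 and 12.24 at LP. All 3 LP arrays of Xindong20 lay below the other 9 arrays, which lay close together, and the Xindong23 groups overlapped. The group means were 12.20 ± 0.08 (SD, n = 3), 11.78 ± 0.03, 12.18 ± 0.09 and 12.17 ± 0.11 in that order.

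The LP minus CP difference of the ubiquitin 3' set in Xindong20 was -0.42 (SE 0.11, 95% interval -0.66 to -0.17). It did not pass limma's test after Benjamini-Hochberg adjustment over all 61290 probe sets (adjusted p = 0.0835, and 0.0535 without both LP3 arrays). In Xindong23 the same difference was -0.01 (interval -0.25 to 0.24). The difference between the varieties in this response was -0.41 (adjusted p = 0.281). In bulk root RNA, fewer cells of a type and less RNA per cell cannot be told apart.

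The ubiquitin 5' set, AFFX-Ta_Ubiquitin_5_at, measured the other end of the transcript and varied far more. In Xindong20 it read 12.83, 12.55 and 12.71 at CP and 12.22, 12.68 and 8.97 at LP. In Xindong23 it read 12.41, 12.52 and 12.42 at CP and 12.84, 12.70 and 11.08 at LP. Apart from both LP3 arrays, all values lay between 12.22 and 12.84. The Xindong20 LP minus CP difference of -1.41 had a 95% interval from -3.22 to 0.41 (adjusted p = 0.397), and it was -0.24 without both LP3 arrays.

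The ubiquitin middle set lay between the ends in this respect. It read 12.85, 12.62 and 12.79 at CP and 12.33, 12.36 and 11.29 at LP in Xindong20. It read 12.70, 12.75 and 12.77 at CP and 12.76, 12.69 and 12.47 at LP in Xindong23. In Xindong20 all LP arrays lay below all CP arrays, with LP3 far below the other LP arrays. The difference was -0.76 (SE 0.25, adjusted p = 0.137), and -0.41 (adjusted p = 0.0533) without both LP3 arrays, close to that of the 3' set.

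Actin gave the 1 call among the 16 reference probe sets. Probe set AFFX-Ta-actin-M_x_at, here actin-M_x, of the middle of the transcript, read 6.39, 6.22 and 5.96 at CP in Xindong20 and 5.32, 5.55 and 4.78 at LP. In Xindong23 it read 5.46, 5.29 and 5.13 at CP and 5.72, 5.72 and 5.48 at LP. In Xindong20 the LP arrays were all lower than the CP arrays, and in Xindong23 all 3 LP arrays lay above the CP arrays by a narrow margin.

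In Xindong20 actin-M_x fell by 0.97 on the log2 scale at LP (SE 0.20, 95% interval -1.42 to -0.52, limma adjusted p = 0.0436). The other middle set, actin-M, read 7.10, 6.97 and 6.64 at CP and 6.23, 6.19 and 5.75 at LP in this variety. Those values did not overlap either, and the difference of -0.85 had an adjusted p of 0.0611. Without both LP3 arrays the differences were -0.76 for actin-M_x and -0.70 for actin-M, with adjusted p of 0.0321 and 0.0372. The actin-M_x call was lost in 11 of 20 alternative settings, 10 of them with a single array left out, and its adjusted p ranged from 0.00367 to 0.155.

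The 2 end sets of actin differed in their level against the array median. The 5' set read 6.50, 6.41 and 5.91 at CP and 5.66, 5.93 and 5.22 at LP in Xindong20, where the ranges overlapped slightly, and 5.84, 5.44 and 5.26 at CP and 5.95, 5.80 and 5.29 at LP in Xindong23. Its Xindong20 difference was -0.67 (adjusted p = 0.192). The 3' set, below the array median, read 3.73, 3.92 and 3.84 at CP and 3.62, 3.43 and 3.52 at LP in Xindong20. It read 3.55, 3.20 and 3.67 at CP and 3.87, 3.69 and 3.97 at LP in Xindong23.

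For the actin 3' set, all LP arrays were below all CP arrays in Xindong20 (-0.31, adjusted p = 0.296) and above them in Xindong23 (0.37, adjusted p = 0.774). The 4 actin sets were each lower at LP in Xindong20 and higher at LP in Xindong23 by their group means. The interaction, the Xindong20 difference minus the Xindong23 difference, was -1.32 (SE 0.29, adjusted p = 0.0942) for actin-M_x, -1.11 (adjusted p = 0.13) for actin-M, -0.84 (adjusted p = 0.335) for actin-5 and -0.67 (adjusted p = 0.192) for actin-3. None passed. The 4 sets report the same transcript, or related ones, on the same arrays and are not independent.

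GAPDH, the enzyme of glycolysis, was measured by 5 sets. Its 5' set, AFFX-Ta-gapdh-5_at, was above the array median on all arrays and read 5.53, 5.99 and 5.78 at CP and 6.08, 6.29 and 6.09 at LP in Xindong20. In Xindong23 it read 5.47, 5.63 and 5.73 at CP and 6.06, 5.87 and 6.04 at LP. The LP arrays lay above the CP arrays in both varieties, by 0.38 in each. This was the only one of the 16 sets whose groups did not overlap in the same direction in both varieties, but the average difference of 0.38 (SE 0.10, interval 0.15 to 0.61) had an adjusted p of 0.185.

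The other GAPDH sets differed from the 5' set and from each other. In Xindong23 gapdh-5_x was 0.51 higher at LP (adjusted p = 0.662), gapdh-M 0.38 higher (adjusted p = 0.691) and gapdh-M_x 0.33 higher (adjusted p = 0.839). In Xindong20 the same 3 sets differed by -0.09, -0.09 and -0.28, with adjusted p of 0.842, 0.773 and 0.335. The gapdh-M set held the lowest levels of the 16, with group means of 2.43 ± 0.20, 2.34 ± 0.11, 1.93 ± 0.15 and 2.30 ± 0.06 for Xindong20 CP, Xindong20 LP, Xindong23 CP and Xindong23 LP.

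The GAPDH 3' set was flat except on the LP3 arrays. It read 2.94, 2.97 and 3.13 at CP and 3.20, 3.02 and 3.91 at LP in Xindong20, and 3.00, 3.10 and 2.90 at CP and 3.33, 2.99 and 3.68 at LP in Xindong23. The highest values were those of the LP3 arrays, the reverse of the ubiquitin 5' set. Its SD over the arrays was 0.32 with all 12 arrays and 0.13 with 10.

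EF1a, the translation factor, had low control signals. Its 3' set, AFFX-Ta-ef1a-3_at, a little above the array median, read 4.90, 4.98 and 4.92 at CP and 4.67, 4.77 and 4.96 at LP in Xindong20. In Xindong23 it read 4.32, 4.45 and 4.53 at CP and 4.77, 4.58 and 4.58 at LP. At CP the Xindong20 arrays lay above the Xindong23 arrays without overlap, and at LP the group means were closer: the LP minus CP difference was -0.14 in Xindong20 (adjusted p = 0.604) and 0.21 in Xindong23 (adjusted p = 0.985).

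The EF1a 5' set had group means of 3.04 ± 0.10, 3.23 ± 0.08, 3.17 ± 0.39 and 3.06 ± 0.14, where the large SD of Xindong23 CP came from 3.62 on CP1 against 2.96 and 2.94. The middle set, ef1a-M_s, read 3.15, 3.19 and 3.19 at CP and 3.83, 4.22 and 2.70 at LP in Xindong20, and 2.84, 2.98 and 2.90 at CP and 3.35, 3.64 and 2.57 at LP in Xindong23. In both varieties LP arrays 1 and 2 were above, and LP3 below, every CP array. With all arrays its average LP minus CP difference was 0.34 (adjusted p = 0.687), and without both LP3 arrays it was 0.72 (adjusted p = 0.017). It also passed where arrays were weighted by their fit (0.55, adjusted p = 0.0423), and in no other setting for the average.

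18S rRNA varied most among the transcripts, next to the ubiquitin 5' set. It read 10.60, 9.32 and 9.22 at CP and 9.05, 10.03 and 7.55 at LP in Xindong20, and 8.82, 8.14 and 8.09 at CP and 9.76, 9.00 and 7.18 at LP in Xindong23. The lowest value of each variety was that of LP3, and the range over all arrays was 3.42. The LP minus CP differences were -0.83 (SE 0.73, adjusted p = 0.596) and 0.29 (adjusted p = 0.999), and without both LP3 arrays -0.17 and 1.03. The spread within groups was too wide to show a difference of that size.

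Over the whole array, more probe sets passed the test of phosphorus in Xindong20 than in Xindong23, and 1 of the reference sets was among them. For any difference among the 4 groups, 0 of 16 passed limma's F test, against 2.57% of all probe sets, with 8 of 16 and 17.1% at an unadjusted p under 0.05. In Xindong20, 1 of 16 passed, against 1.82% of all probe sets (1114), and it was lower at LP, as were 0.826% of all. There 6 of 16 had an unadjusted p under 0.05, against 18.6% of all. In Xindong23, 0 of 16 passed, against 0.00653% (4 probe sets), and at an unadjusted p under 0.05 there were 5 of 16 and 5.83% of all. For the average of both varieties, 0 of 16 passed, against 0.279%, with 3 of 16 and 10.9% unadjusted. For the interaction, 0 of 16 passed, against 0.132%, with 8 of 16 and 13.9% unadjusted. Without both LP3 arrays the counts passing in Xindong20 were 3 of 16 (actin-M, actin-M_x and ef1a-M_s) and 7.96% of all.

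Directions were more one-sided than these calls. In Xindong20, 12 of 16 sets were lower at LP, with a median difference of -0.29, while 55.8% of all probe sets were lower, with a median of -0.05. In Xindong23, 12 of 16 were higher at LP, with a median of 0.29, while 55.1% of all were higher, with a median of 0.03. These shares of the 16 describe probe sets that report only 5 transcripts. Of all probe sets below the array median on all arrays, 63.4% were lower at LP in Xindong20 and 63.4% higher in Xindong23. Among the 16, 5 were of this dim kind. The 3 CP and 3 LP arrays of Xindong20 did not overlap for 8 of 16 sets, against 22.8% of all, with 6 lower at LP (13.6% of all) and 2 higher (9.17%). In Xindong23 they did not overlap for 6 of 16, against 14.2% of all, and all 6 were higher at LP (6.61%). Of the 6 that were lower in Xindong20, actin-3 and actin-M_x were also among the 6 that were higher in Xindong23.

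**Figure D2:**
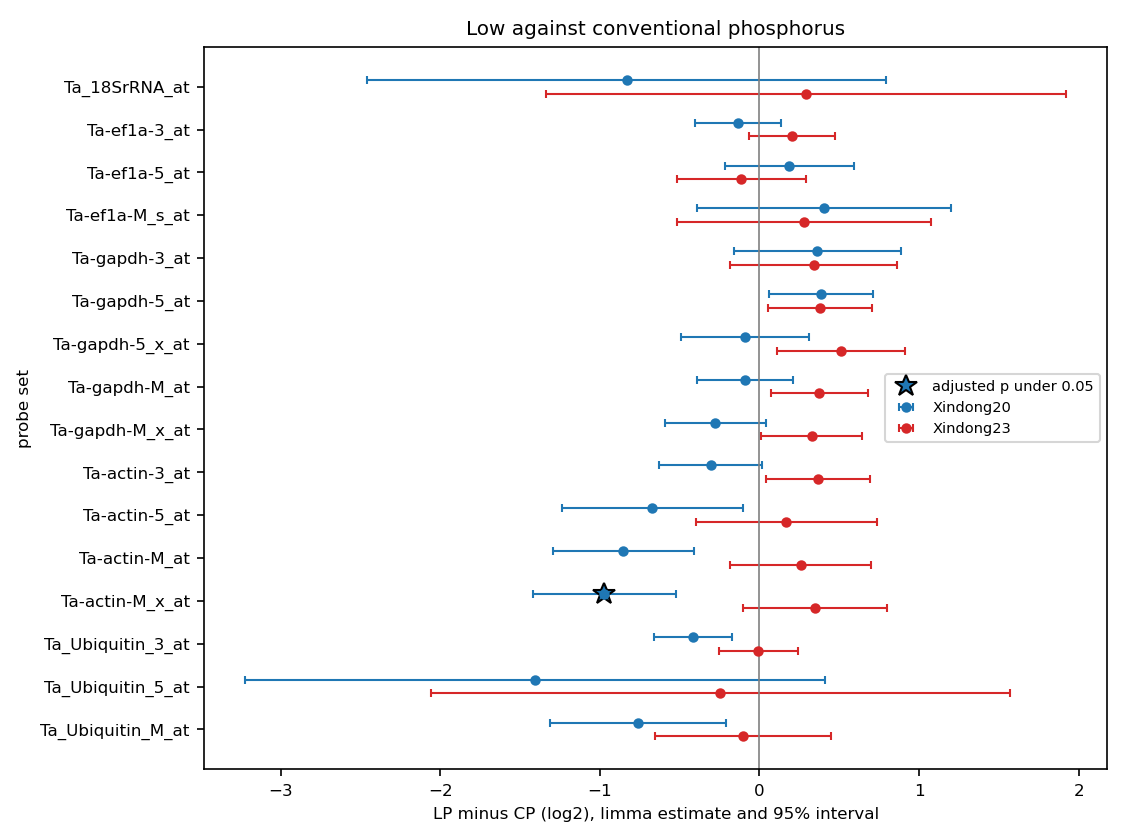
LP minus CP difference in log2 intensity (x axis) of each reference probe set (y axis) in Xindong20 and Xindong23, as limma estimates with 95% intervals from 3 arrays a group. The actin sets lie left of 0 in Xindong20 and right of 0 in Xindong23, and the star marks the 1 set, actin-M_x in Xindong20, with an adjusted p under 0.05.

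Between the varieties, the lowest p-values were at conventional phosphorus, where the actin sets and ef1a-3 had higher means in Xindong20, although no set passed the test. The Xindong20 minus Xindong23 difference at CP was 0.90 for actin-M_x (SE 0.20, adjusted p = 0.0505), 0.84 for actin-M (adjusted p = 0.0598) and 0.50 for ef1a-3 (SE 0.12, adjusted p = 0.0636). For gapdh-M it was 0.50 (adjusted p = 0.0892), for actin-5 0.76 (adjusted p = 0.154) and for gapdh-5_x 0.55 (adjusted p = 0.149). None of the 16 passed, against 2.34% of all probe sets, although 8 of 16 and 17.7% of all had an unadjusted p under 0.05. Without both LP3 arrays these 6 sets passed, with adjusted p from 0.00965 to 0.0475, against 10.2% of all probe sets.

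The LP3 arrays do not enter the CP means, so leaving them out changed the estimate of the spread and not the differences. The 3' and middle sets of ubiquitin differed little between the varieties at CP, by 0.02 (interval -0.23 to 0.27) and 0.01. By sign, 15 of 16 sets were higher in Xindong20. The share was 57.9% of all probe sets and 71.9% of those below the array median on all arrays. The count of 15 depended on scaling: it was 12 of 16 after median centring, against 49.9% of all, and 12 of 16 after quantile normalization, against 53.3%. The arrays of the varieties did not overlap for 11 of 16 sets at CP, against 39.3% of all, and Xindong20 was above in all 11 (21.7% of all). That count also depended on scaling. As levels minus the array median, actin-3, gapdh-M_x and the ubiquitin 5' set overlapped. For actin-3, Xindong20 CP1 was then at -0.60 and Xindong23 CP3 at -0.57. The share of all probe sets on that scale is not given here.

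At low phosphorus the same differences were smaller or of the opposite sign. The difference was -0.42 for actin-M_x, -0.28 for actin-M and 0.16 for ef1a-3, with adjusted p of 0.649, 0.867 and 0.89. The ubiquitin 3' set was 0.39 lower in Xindong20 (interval -0.64 to -0.14), with an adjusted p of 0.216. None of the 16 passed, against 0.886% of all, with 2 of 16 and 8.29% at an unadjusted p under 0.05. The arrays did not overlap for 5 of 16 sets, against 9.48% of all, with Xindong20 above for 1 (4.06% of all) and below for 4 (5.42%).

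**Figure D3:**
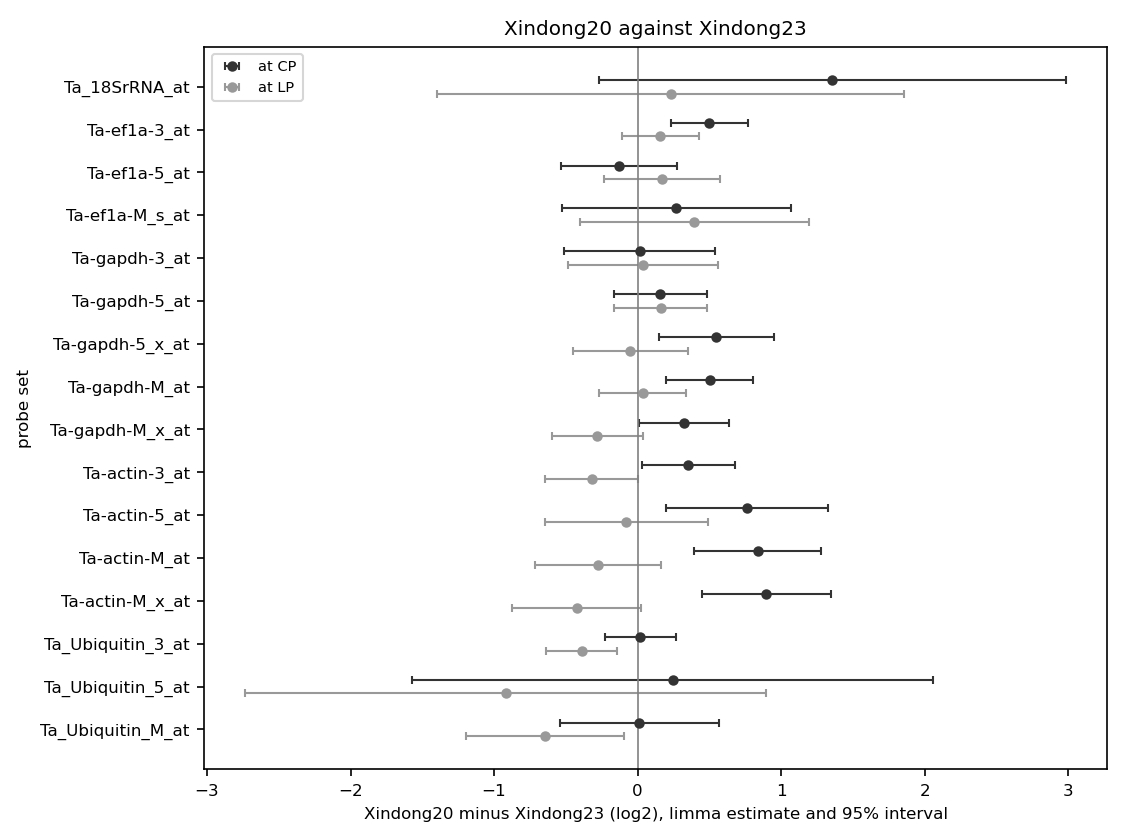
Xindong20 minus Xindong23 difference in log2 intensity (x axis) of each reference probe set (y axis) at CP and at LP, as limma estimates with 95% intervals from 3 arrays a group. At CP 15 of the 16 estimates lie right of 0, and at LP 7 do.

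Stability was described by the SD over all arrays. The median SD of all 61290 probe sets was 0.298, and 8 of the 16 reference sets lay below it. The lowest were the ubiquitin 3' set with 0.20 (percentile 21.2 of all probe sets), the EF1a 5' set with 0.20 (percentile 23.1) and gapdh-M_x with 0.20 (percentile 23.7). The ef1a-3 set had 0.22 and actin-3 also 0.22. Of these, the EF1a 5' and actin-3 sets lay below the array median on all 12 arrays and gapdh-M_x on 1. The ef1a-3 set lay a little above it. For such dim signals a small SD need not mean steady RNA of the transcript.

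At the other end, the ubiquitin 5' set had an SD of 1.11 (percentile 95.8) and 18S rRNA 1.01 (percentile 94.6). Without both LP3 arrays the ubiquitin 5' set went to 0.20 (percentile 33.9) and the middle set from 0.43 to 0.18 (percentile 26.7), while 18S rRNA stayed high at 0.78 (percentile 93.8). The actin sets actin-5, actin-M and actin-M_x, at 0.42, 0.42 and 0.45, kept an SD of 0.38, 0.39 and 0.41 in the 10 arrays. Leaving out the LP3 arrays thus changed the spread of these actin sets far less than that of the ubiquitin 5' and middle sets. The ubiquitin 3' set changed little, from 0.20 to 0.19.

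On the LP3 arrays 8 of the 16 sets had their lowest value of all 12 arrays. These were actin-5, actin-M, actin-M_x and the ubiquitin 5' and middle sets on Xindong20 LP3, and ef1a-5, ef1a-M_s and 18S on Xindong23 LP3. The actin 3' set and the GAPDH 3' set had their highest value there, on Xindong23 LP3 and Xindong20 LP3.

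**Figure D4:**
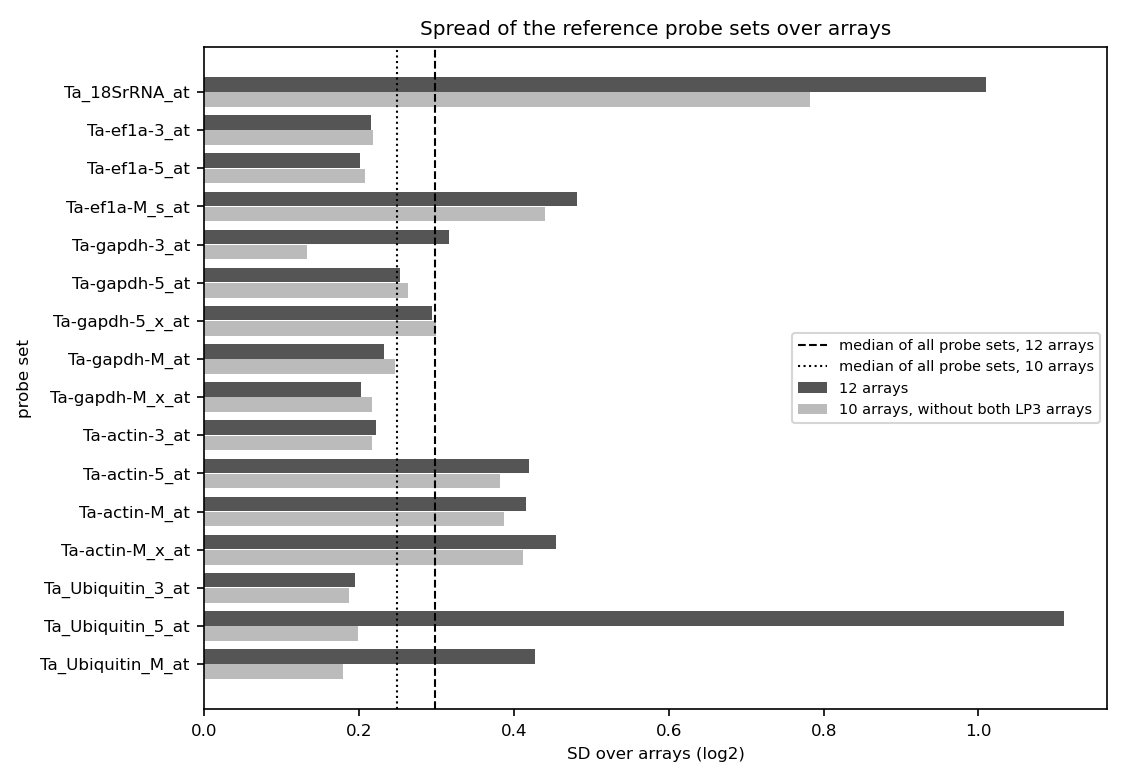
SD of the log2 intensity (x axis) of each reference probe set (y axis) over all 12 arrays (dark bars) and over the 10 arrays without both LP3 arrays (light bars), with the median of all probe sets as lines at 0.298 and 0.248. The bars of the ubiquitin 5' and middle sets shrink to 0.20 and 0.18, while that of 18S stays at 0.78.

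Stability of the transcripts against each other was described by the mean SD of their log2 differences with the other 4, a measure known as M, over the 3' sets and the 18S set, where a lower value is a steadier ratio. M was 0.462 for EF1a, 0.465 for actin, 0.496 for ubiquitin and 0.586 for GAPDH, and 1.06 for 18S rRNA. The actin and GAPDH 3' sets lay below the array median on all 12 arrays, and the EF1a 3' set a little above it. For these sets M describes dim signals, which need not follow the RNA of the transcript. Every M also holds a ratio to 18S. The SD of those ratios was 0.953 to 1.23, against 0.235 to 0.411 for the other pairs. Leaving out single arrays moved EF1a between 0.416 and 0.482 and actin between 0.415 and 0.485, so their order is not resolved, whereas 18S stayed between 0.905 and 1.11. Without both LP3 arrays M was 0.340, 0.352, 0.399, 0.379 and 0.748 in the same order, which put GAPDH ahead of ubiquitin. The steadiest ratio was that of ubiquitin to actin, with an SD of 0.235, and the least steady that of GAPDH to 18S, with 1.23. In the 10 arrays without LP3 these were actin to EF1a, with 0.184, and ubiquitin to 18S, with 0.822.

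With the 5' sets in place of the 3' sets, the order was different. M was then 1.03 for ubiquitin, the highest, and 0.638 for actin, the lowest, with EF1a at 0.715, GAPDH at 0.78 and 18S at 0.892. Of these 5' sets, that of EF1a lay below the array median on all 12 arrays. In the 10 arrays without LP3 the ubiquitin value was 0.412, the lowest of the 5.

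The ends of a transcript were compared on each array as the 3' level minus the 5' level. The probes of each set bind with their own strength, so the size of this difference is not a measure of RNA, and only its movement between arrays is described. For ubiquitin it was -0.54, -0.41 and -0.54 at CP and -0.48, -0.88 and 2.84 at LP in Xindong20. It was -0.34, -0.29 and -0.19 at CP and -0.61, -0.65 and 1.16 at LP in Xindong23. Both LP3 arrays were above 0 and all 10 others were below it.

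The ubiquitin middle set placed most of that shift toward the 5' end. The 3' minus middle difference was 0.52 on Xindong20 LP3 and -0.22 on Xindong23 LP3, against -0.64 to -0.47 on the other arrays (SD 0.05, n = 10). The middle minus 5' difference was 2.32 and 1.39 on the LP3 arrays, against -0.33 to 0.35. On the 10 other arrays the 3' and middle sets of ubiquitin thus moved together closely.

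Over all arrays, the ends of ubiquitin differed by 0.23 ± 1.48 (SD, n = 6) at LP and -0.38 ± 0.14 at CP. The difference of 0.61 did not pass an exact two-sided permutation test (p = 0.45, adjusted p = 0.741 over 8 tests). Within the varieties it was 0.99 in Xindong20 and 0.24 in Xindong23. Without both LP3 arrays the sign was the opposite, -0.27 (exact permutation p = 0.0238, adjusted p = 0.19), with all 4 remaining LP arrays below the CP median of -0.38. Within Xindong20 the LP and CP values still overlapped, with LP1 at -0.48 against -0.54, -0.41 and -0.54 at CP.

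In actin the ends moved less on the LP3 arrays than in ubiquitin. The actin 3', GAPDH 3' and EF1a 5' sets lay below the array median on all 12 arrays. The 5' sets of actin and GAPDH lay above the array median on all 12 arrays. On the LP3 arrays (Xindong20 first) actin-5 read 5.22 and 5.29, and gapdh-5 read 6.09 and 6.04. Whether the dim sets miss a shift was not tested. The actin 3' minus 5' difference ran from -2.77 to -1.32 over the 12 arrays, with -1.70 on Xindong20 LP3 and -1.32 on Xindong23 LP3, the highest value of each variety. It was -1.96 ± 0.40 at LP and -2.24 ± 0.40 at CP, a difference of 0.28 (exact permutation p = 0.249, adjusted p = 0.664). Its middle and 5' sets kept a nearly fixed distance, 0.26 to 0.78 with an SD of 0.15, on the LP3 arrays too. Toward the middle of the transcript, the 3' minus middle difference of actin was -2.23 and -2.03 on the LP3 arrays (Xindong20 first), against -3.37 to -2.37 on the other 10. For EF1a it was 2.258 and 2.002 against 0.56 to 1.79, and for GAPDH 1.45 and 1.41 against 0.47 to 1.21, so both LP3 arrays were the highest in all 3.

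For GAPDH the 3' minus 5' difference ran from -3.27 to -2.18, again with the highest value of each variety on LP3, -2.18 and -2.36. It was -2.72 ± 0.39 at LP and -2.69 ± 0.21 at CP, a difference of -0.03 (exact permutation p = 0.87, adjusted p = 0.994). For EF1a it ran from 0.70 to 1.96, and the lowest value belonged to Xindong23 CP1. Its LP and CP means were 1.58 ± 0.16 and 1.58 ± 0.47 (exact permutation p = 0.994, adjusted p = 0.994). Between the varieties, EF1a differed by 0.31 (exact permutation p = 0.0844, adjusted p = 0.664), actin by -0.32 (p = 0.184, adjusted p = 0.664, exact), and GAPDH and ubiquitin by -0.13 and 0.15 (adjusted p = 0.741 and 0.994, exact). With 6 arrays against 6 the smallest p that the exact test can give is 0.00216.

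**Figure D5:**
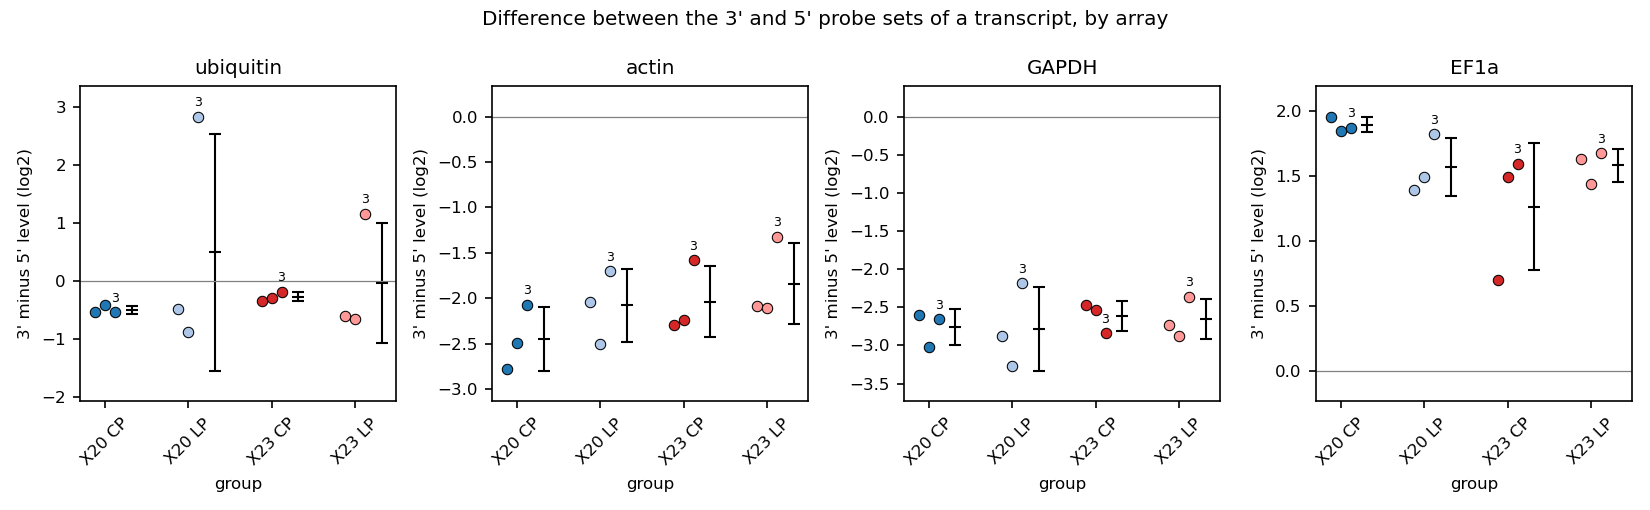
Level of the 3' probe set minus that of the 5' probe set (y axis, log2) of each transcript on each array, by group (x axis), with the mean and SD of the 3 arrays as a bar beside the points and replicate 3 marked. Ubiquitin reaches 2.84 and 1.16 on the LP arrays numbered 3 and lies between -0.88 and -0.19 on the others. The y axes differ between the panels.

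A further control with sets at both ends, G-6-PDH, which is not among the 16 and was looked at after the ubiquitin values were seen, also set the LP3 arrays apart. G-6-PDH is the first enzyme of the pentose phosphate pathway. Its 3' minus 5' difference was 6.86 on Xindong20 LP3 and 6.82 on Xindong23 LP3, against 2.79 to 4.68 on the other 10 arrays. Its 5' set was at 3.76 and 4.40, against 5.63 to 7.73. The source of the LP3 values was not tested.

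How far the sets of a transcript moved together over the 12 arrays differed between the transcripts. For 22 pairs of sets of the same transcript, Pearson's r was positive in 19 and passed a permutation test after adjustment over the 22 in 5. All 5 belonged to actin or ubiquitin. Group differences and the LP3 arrays are part of these correlations, since the arrays share groups.

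The actin 5', M and M_x sets moved as 1 unit. Between actin-M and actin-M_x r was 0.959 and Spearman's rho 0.909 (permutation, adjusted p = 0.000367 and 0.00308). Between actin-5 and actin-M r was 0.937 and rho 0.853 (permutation, adjusted p = 0.000367 and 0.00645), and r was 0.885 without the 2 arrays farthest from the median. Deviations within the groups alone gave 0.914 for that pair. The actin 3' set was less close, with r of 0.514 to actin-M and 0.304 to actin-5 (permutation, adjusted p = 0.224 and 0.445).

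In ubiquitin, the 5' and middle sets had r of 0.911 and rho of 0.678 (permutation, adjusted p = 0.0439 and 0.0827). Without the 2 farthest arrays, which were both LP3 arrays, r was 0.472, so that relation rests on them. The 3' and middle sets had r of 0.698 and rho of 0.699 (permutation, adjusted p = 0.0249 and 0.0764), and r was 0.957 without LP3. Deviations from the group means gave r of -0.06 with all arrays and 0.701 without LP3. The 3' and 5' sets had r of 0.389 (permutation, adjusted p = 0.351).

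The sets of GAPDH and EF1a moved less together. The 10 GAPDH pairs had r from -0.08 to 0.606, and the 3 EF1a pairs from -0.28 to 0.299. None passed the permutation test. For GAPDH the closest pair was gapdh-5_x and gapdh-M (adjusted p = 0.128 by permutation), not a pair of the same region.

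Genes with other probe sets on the array gave a further view of the same functions. A table of the array's annotation paired 1273 probe sets with 1 gene, and 200 of these had a descriptive gene name. Only these 200 were searched for reference-type genes. The search found 16 probe sets, for 9 genes: TEF1, GAPN, UBC1, TUBA, tubb1, tubb2, tubb3, Tubb4 and Tubb5. No actin gene was among the 200, and probe sets of genes without a descriptive name were not searched. TEF1 encodes EF1a, and its probe set Ta_659_2_S1_x_at had group means of 12.30 ± 0.16, 12.42 ± 0.61, 12.26 ± 0.17 and 12.21 ± 0.57 in the order Xindong20 CP, LP, Xindong23 CP, LP.

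With all arrays, none of these 16 sets passed the test in any contrast, and none had an SD below the median of all probe sets. In the 10 arrays without LP3, 4 of 16 had an SD below the median, and 1 set passed, TaAffx_51048_1_S1_at of UBC1. That set's LP minus CP difference in Xindong20 was 0.07 (limma adjusted p = 0.965) with all arrays and 0.83 (adjusted p = 0.031) without LP3. GAPN encodes the glyceraldehyde-3-phosphate dehydrogenase that does not phosphorylate, a separate enzyme from GAPDH, and its group means ran from 5.30 to 5.90. UBC1, a ubiquitin-conjugating enzyme, was on 3 sets, which did not move the same way. Without LP3, Ta_2711_1_S1_x_at differed by 0.40 in Xindong20 (limma adjusted p = 0.0845). TaAffx_53697_1_S1_x_at differed by -0.84 (adjusted p = 0.0618). The tubulins, of the microtubule cytoskeleton, were on 10. Their largest LP minus CP difference in Xindong20 was 0.98 for tubb2 (adjusted p = 0.424), and 1.23 (adjusted p = 0.268) without LP3. For Tubb4 it was -0.92 (adjusted p = 0.248), and -0.39 (adjusted p = 0.0617) without LP3. The TUBA set Ta_812_1_S1_x_at turned from -0.67 (adjusted p = 0.669) to 0.26 (adjusted p = 0.503), while the other TUBA set gave 0.87 and 0.79.

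Among the 200 probe sets of descriptively named genes, those most like the 3' set of each protein transcript and the 18S set over the 12 arrays were found by Pearson's r. For the ubiquitin 3' set they were Eif4B, a translation initiation factor (r 0.840, rho 0.706), and SAHH (r 0.793, rho 0.51). For actin-3 they were CAT1, a catalase (r 0.712, rho 0.804), and TTHV (r 0.688, rho 0.643). The TTHV set was dim, with a mean level of 2.75, and actin-3 too lay below the array median. For ef1a-3 they were wci (r 0.783) and at2G04570 (r 0.756). These are the highest of 200 and carry no test.

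For 18S rRNA the most alike were PER1 (r 0.866, rho 0.937) and PRO1, a profilin, which binds actin (r 0.848, rho 0.86). They kept r of 0.845 and 0.788 over the 10 arrays without LP3. For the GAPDH 3' set the most alike were SER1 (r 0.918, rho 0.552) and LMW-GS, a glutenin of the grain (r 0.817, rho 0.741). Without LP3 these were 0.634 and 0.398, so the likeness of the GAPDH 3' set rests in part on the LP3 arrays. It is also a likeness of dim signals: the mean levels of SER1 and LMW-GS were 2.26 and 2.30, below every array median.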

How the data were processed

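The log2 intensities were normalized before the authors deposited them. RMA (robust multi-array average) and Affymetrix Expression Console 1.4.1 stand in the submitters' processing notes with no order given. That the log base is 2 was inferred from the span of the values. No source used here states the probe set library or a filter.

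Groups were taken from the labels. limma 3.58.1 in R 4.3.3 was fitted to all 61290 probe sets, control probe sets included since the reference sets are controls, with 1 mean per group, no filter, 8 residual and 2.28 prior degrees of freedom. Tests were two-sided, with Benjamini-Hochberg adjustment across the 61290 probe sets and a call at an adjusted p under 0.05. Intervals are 95% and unadjusted. The difference between ends was tested with exact permutation, adjusted over 8 tests. By the chosen settings labels were exchanged freely over the arrays, so the test of phosphorus did not hold variety fixed, nor the reverse. Correlations used 100000 permutations. With 3 arrays against 3, an exact test cannot go below 0.10, so none is given. For arrays there is no read depth, and their number limits the precision. The fit was tested on simulated data.

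Named were all reference sets, the annotated reference-type genes, the 2 named probe sets most alike in level to each 3' set and to 18S, and the other controls as ranges. The members and lists were chosen with earlier results of these data known. A list that came with the rule named 15 probe sets. The rule found 16, the ubiquitin middle set being the further one, and without it the counts of calls were the same. Probe set IDs of annotated genes are printed with _ in place of dots, those of the reference sets mostly without AFFX-Ta and _at. Alternatives were median centring, quantile normalization, a filter on dim sets, a variance trend, array weights, other controls left out, a replicate block, 1 array or both LP3 arrays left out, and other probe sets for the ends. No sequence is shown.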

Additional observations from a re-analysis of the deposited data

Results flagged for a closer look

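Each value below was set off by its distance from the other arrays of its group or by opposite movement in the varieties. Of 16 groups of 6 arrays tested for an array far from the rest by Dixon's criterion, chance flags about 1 in 20.

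The ubiquitin 3' minus 5' difference was 2.84 on Xindong20 LP3, far above the other 5 Xindong20 arrays, and 1.16 on Xindong23 LP3, far above the other 5 Xindong23 arrays. The EF1a 3' minus 5' difference was 0.70 on Xindong23 CP1, far below both the other CP arrays and the other Xindong23 arrays.

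For actin-3 and actin-M_x all LP arrays lay below all CP arrays in Xindong20 and above them in Xindong23. The difference between the varieties was tested as an interaction, which was -0.67 (adjusted p = 0.192) and -1.32 (adjusted p = 0.0942) in limma and passed for neither.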

How the results depend on the processing

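Counts of the 16 sets called in Xindong20 at LP against CP (1 by the chosen settings) were 2 with quantile normalization, 0 with a variance trend, 5 with array weights, 3 without both LP3 arrays, and 0 to 1 with 1 array left out. For any difference among the groups (0) they were 2, 9 with array weights, 3 without both LP3 arrays, and 0 to 1. For Xindong20 against Xindong23 at CP (0) they were 2, 6 with array weights, 6 without both LP3 arrays, and 0 to 3, with 3 without Xindong20 LP3, and 1 each without Xindong20 LP2 or Xindong23 LP3. For the average of both varieties array weights and leaving out both LP3 arrays gave 1 each, against 4.55% and 3% of all probe sets. For the interaction array weights gave 2, against 6.9% of all. Array weights called 16611, 17073 and 12120 of all probe sets in the first 3 comparisons, against 1114, 1573 and 1436 by the chosen settings. Leaving out both LP3 arrays called 4877, 5735 and 6227. Quantile normalization called 1306, 1490 and 1187, and the variance trend 576, 1148 and 940. With 1 array left out, 152 to 1504, 630 to 2634 and 395 to 3306 were called, the highest at CP without Xindong20 LP3. Counts for LP against CP in Xindong23 and for the varieties at LP were 0 throughout, and median centring, the dim filter and leaving out other controls moved no count. With the dim filter only 11 of the 16 sets were tested.

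The replicate block gave 2 calls in Xindong20, 2 among the groups and 3 between the varieties at CP, all of actin sets. Of all probe sets it called 1.48%, 1.9% and 1.83%. Same-numbered arrays deviated together with r over 0.1 in 6 of 18 pairs, and 0 of 12 arrays correlated best with their own number in every other group. The highest r, 0.756, was between both LP3 arrays. The numbers were not taken to pair the samples.

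The 3' minus 5' differences that changed sign passed no test in either setting. GAPDH at LP against CP (-0.03) was 0.0268 with quantile normalization, 0.0552 with the x sets included, 0.21 for 3' minus middle, and -0.137 to 0.0806 with 1 array left out. EF1a at LP against CP was -0.178 to 0.074, and EF1a between the varieties -0.0039 for 3' minus middle. Ubiquitin at LP against CP (0.61) was -0.27 without both LP3 arrays and 0.09 to 0.84 with 1 array left out. Ubiquitin between the varieties (0.15) was -0.15 without both LP3 arrays and -0.42 to 0.41. The ubiquitin 5' set's average difference (-0.83) was 0.0369 without both LP3 arrays. Without Xindong20 LP3 its interaction (-1.16) was 0.0005 and its difference between the varieties at LP (-0.92) was 0.24, and with other single arrays left out these went down to -1.86 and -1.61. M moved to 0.399 for ubiquitin and 0.340 for EF1a without both LP3 arrays, and with the 5' sets to 1.03 for ubiquitin, 0.638 for actin and 0.715 for EF1a. The cause of these changes was not tested.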
